A study of Mus musculus with 15 samples.

Results

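Alpl, Bglap and Bglap2 are mouse genes of bone mineralization. The binding sites of FLAG-tagged Sp7, a mutant Sp7 (Sp7mut), Dlx5 and Sp1 around them were taken from 12 ChIP-seq peak lists of osteoblasts. The members are all peaks with a midpoint in chr4:137200000-137450000, a window of 250 kb given for Alpl, or in chr3:88120000-88250000, a window of 130 kb given for Bglap and Bglap2 (mm9). Peaks of any list that shared at least 1 bp were joined into 1 site. This gave 32 sites in the Alpl window and 10 in the Bglap window, 42 of the 61108 sites of the whole series. Gene models of mm9 were not used, so whether a site lies in a promoter, an exon or an intron of these genes is not stated.

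Alpl encodes tissue-nonspecific alkaline phosphatase, which osteoblasts carry on their surface and which breaks down pyrophosphate, an inhibitor of mineral growth. Bglap and Bglap2 encode osteocalcin, a small protein that mature osteoblasts secrete into the bone matrix. Both are standard markers of osteoblast differentiation, Alpl from an early stage and osteocalcin late. Sp7 (Osterix) is a zinc finger factor needed for osteoblasts to form. Dlx5 belongs to the homeodomain family and takes part in forming the skeleton. Sp1, a relative of Sp7 found in most cells, binds GC-rich DNA. In a genome table of another build, GRCm38.p6, Alpl lies between the protein-coding genes Rap1gap and Ece1, and Bglap3, Bglap2, Bglap and Pmf1 follow each other.

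In primary calvarial osteoblasts of C57BL/6 mice at postnatal day 1, Sp7 carried the tag in animals of genotype Sp7-BioFL/BioFL (2 lists), and wild-type animals without the tag gave the control (1 list). In MC3T3-E1, a mouse calvarial osteoblast line at passages 5 to 10, the tagged proteins were Sp7mut, Sp7, Dlx5 and Sp1 (2 lists each), with GFP as the control (1 list). The line was cultured for 1 week with BMP2, a bone-inducing growth factor, at 10 ng/ml, 10 mM beta-glycerophosphate and 50 ug/ml ascorbic acid phosphate. The labels do not say which mutation Sp7mut carries, how the factors were expressed in the line, or whether the replicates of a factor were grown and harvested separately. All pulldowns used the M2 antibody against FLAG. Each list gives a chromosome, a start and an end for every peak, with no height or read count, so the depth behind a peak is unknown. The place of a peak is therefore given as its row percentile, which is near 0 for the first row of its list and 100 for the last. What the rows were sorted by is not stated in the labels or the files, so "early" and "late" name a place in the list and not the strength of a peak.

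The promoters of Alpl and Bglap are shown for the letters that Sp1, homeodomain factors such as Dlx5 and Runx2 are known to bind. RefSeq start sites in GRCm38.p6 were available for Alpl and Bglap but not for Bglap2. Each window runs from 250 bases before the start to 50 after it, 5′ to 3′ on the strand of the gene. Capitals mark matches to a GC box (GGGCGG, the core bound by Sp1), to homeodomain letters (TAATTA or TAATTG) or to the Runx core (TGTGGT, bound by Runx2, the other main osteoblast factor), searched on both strands. TAATTG was added after the sequences had been read. These windows are not placed on the mm9 peaks.
Alpl, upstream start, chr4:137796335-137796634, minus strand: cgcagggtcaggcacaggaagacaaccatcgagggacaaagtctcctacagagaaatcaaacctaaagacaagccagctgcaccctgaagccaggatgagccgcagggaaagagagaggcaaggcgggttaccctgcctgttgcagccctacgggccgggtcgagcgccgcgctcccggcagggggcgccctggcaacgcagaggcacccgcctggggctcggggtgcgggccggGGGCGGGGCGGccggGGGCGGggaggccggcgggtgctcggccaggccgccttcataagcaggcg
Alpl, downstream start, chr4:137766426-137766725, minus strand: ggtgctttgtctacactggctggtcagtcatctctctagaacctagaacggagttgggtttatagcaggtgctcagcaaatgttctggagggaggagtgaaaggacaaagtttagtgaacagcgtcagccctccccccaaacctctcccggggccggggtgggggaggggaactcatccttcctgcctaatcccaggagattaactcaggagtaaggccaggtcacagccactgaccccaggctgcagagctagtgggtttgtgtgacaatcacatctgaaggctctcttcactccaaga
Bglap, chr3:88384417-88384716, minus strand: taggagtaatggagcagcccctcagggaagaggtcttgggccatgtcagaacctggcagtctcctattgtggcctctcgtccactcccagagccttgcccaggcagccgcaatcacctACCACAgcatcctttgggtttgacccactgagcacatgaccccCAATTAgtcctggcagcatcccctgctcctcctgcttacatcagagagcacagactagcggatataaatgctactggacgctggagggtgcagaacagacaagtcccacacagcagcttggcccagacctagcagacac
The upstream Alpl promoter was 70.0% G and C and held 3 GC boxes within a few bases of the start, the first and second of which share a base. The downstream Alpl promoter was 54.3% G and C and held no match to any of these motifs, and the Bglap promoter, at 56.7%, held 1 TAATTG and 1 TGTGGT match, both on the opposite strand. These ended 84 and 127 bases before the start. Over all 32851 promoters of the table, the median was 52.7% G and C, and 35.7% held GGGCGG, 5.29% TAATTA, 8.0% TAATTG and 16.8% TGTGGT.

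Peaks were dense around Alpl in most tagged lists. Primary Sp7 had 3 and 5 peaks in the Alpl window, and wild-type cells had 0. In the cell line, Sp7mut had 8 and 16 peaks there, Sp7 11 and 4, Dlx5 14 and 21, Sp1 1 and 17, and the GFP control 0. The genome was cut into 10250 tiles of 250 kb to read these numbers within each list. At least as many peaks were found in 1.53% and 0.293% of tiles for primary Sp7, in 1.44% and 0.322% for Sp7mut, in 1.90% and 3.80% for Sp7 and in 2.97% and 1.48% for Dlx5. The Sp1 lists parted, at 37.9% of tiles for the shorter list and 2.11% for the longer. All lists together gave 12.8 sites per 100 kb in the window, against 5.40 per 100 kb in the 500 kb that flank it. The peak numbers of Sp7mut and Sp7 at Alpl overlapped, so any difference was within the replicate spread. All 10 tagged lists had more peaks per 100 kb in the window than in its flanks. For Sp1 replicate 1 this rests on 1 peak in each, or 0.40 against 0.20 per 100 kb. For Sp7mut these densities were 3.20 and 6.40 in the window, against 0.80 and 1.40 in the flanks, and for Dlx5 5.60 and 8.40, against 2.80 and 3.60. Neighbouring sites stood a median of 3.09 kb apart, with 7 gaps under 1 kb. An exact two-sided permutation test of 2 lists against 2 cannot fall below p = 0.33, and none was made.

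The Bglap window is shorter than the Alpl window and held none of the primary Sp7 peaks. Every tagged list had fewer peaks in it than at Alpl, except Sp1 replicate 1, with 3 against 1. The peaks in it were 0 and 0 for primary Sp7, and 0 for wild-type cells. In the cell line they were 0 and 5 for Sp7mut, 2 and 0 for Sp7, 5 and 6 for Dlx5, 3 and 6 for Sp1, and 0 for GFP. Both Dlx5 and both Sp1 lists thus had peaks, while Sp7mut and Sp7 had them in 1 list each. Of 19726 tiles of 130 kb, 3.65% held at least as many peaks as the window in Sp7mut replicate 2, and 22.4% did in Sp7 replicate 1. For Dlx5 these shares were 11.2% and 12.5%, and for Sp1 6.52% and 7.37%. The tagged lists without a peak here are sparse over all chromosomes. Primary Sp7 had 0.104 and 0.125 peaks per 100 kb, Sp7 replicate 2 had 0.236 and Sp7mut replicate 1 had 0.410. A count of 0 in 130 kb therefore does not set the window apart in these lists. The window had 7.69 sites per 100 kb, against 10.8 in its 260 kb of flanks, where primary Sp7 had 3 peaks in each list. Bglap and Bglap2 are near copies of each other, and how the authors treated reads that match both is not given in the sources used here.

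Of the sites, 9 at Alpl (28.1%) and 2 of 10 at Bglap were found in a single list, where 39.5% of all sites were. Sites held by 5 or more lists numbered 6 at Alpl (18.8%) and 0 at Bglap, against 16.9% of all sites.

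A site was called for a factor when both replicates had a peak in it and no control peak of the same cells met it. No control peak met any of the 42 sites, but the control lists are short, with 183 peaks for wild-type cells and 269 for GFP, and 344 of all 61108 sites held a control peak. Over both windows, 2 sites were called for primary Sp7 (4.76% of the 42, against 3.44% of all 61108 sites). In the cell line, 6 were called for Sp7mut (14.3%, against 13.6% of all sites) and 3 for Sp7 (7.14%, against 8.40%). Dlx5 had 16 called sites (38.1%, against 39.0%) and Sp1 had 4 (9.52%, against 14.8%). Over both windows together the shares lay near those of all sites, within a few sites out of the 42. They give how often a site was called, and not how many called sites a stretch of this length holds. Called sites per tile were not counted. The counts rest on the shorter list of each pair: from replicate 2 alone Sp7mut had 21 sites and Sp1 23, from replicate 1 alone Sp7 had 12, and from replicate 2 alone primary Sp7 had 4 and Dlx5 25. Of the 42 sites, 32 lie in the Alpl window, and so did all called primary Sp7, Sp7mut and Sp7 sites. Of the 4 Sp1 sites, 3 lay in the Bglap window. By window, Sp1 was called at 1 of 32 Alpl sites (3.12%) and 3 of 10 Bglap sites, against 14.8% of all sites. Sp7mut was called at 6 of 32 (18.8%) and 0 of 10, against 13.6%, and Sp7 at 3 (9.38%) and 0, against 8.40%. Primary Sp7 was called at 2 (6.25%) and 0, against 3.44%, and Dlx5 at 12 (37.5%) and 4, against 39.0%. Whether any of these shares departs from the series was not tested. The split by window depends on the replicates for all but primary Sp7 and Dlx5. From replicate 2 alone, Sp1 had 17 sites at Alpl and 6 at Bglap, and Sp7mut had 16 and 5. From replicate 1 alone, Sp7 had 10 at Alpl and 2 at Bglap.

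All 3 Sp7 sites in the cell line were also Dlx5 sites, where 87.1% of Sp7 sites in the whole series were. Of these 3, 2 were Sp7mut sites (71.4% in the whole series) and 0 were Sp1 sites (32.8%). Of the 6 Sp7mut sites, 4 were Dlx5 sites (71.1%) and 2 were Sp7 sites (44.0%). Seen from Dlx5, 3 of its 16 sites were Sp7 sites (18.8% in the whole series), 4 were Sp7mut sites (24.9%) and 1 was an Sp1 site (12.9%). Both primary Sp7 sites were Dlx5 sites of the cell line (69.7%), and 1 of them was a cell line Sp7 site (40.2%). With so few sites these counts describe the loci and say nothing of a difference from the series. The labels name 1 input library for Sp7mut and Sp1 and another for Sp7 and Dlx5. Between Sp7mut or Sp1 and Sp7 or Dlx5, the factor and the input therefore cannot be told apart.

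**Figure D1:**
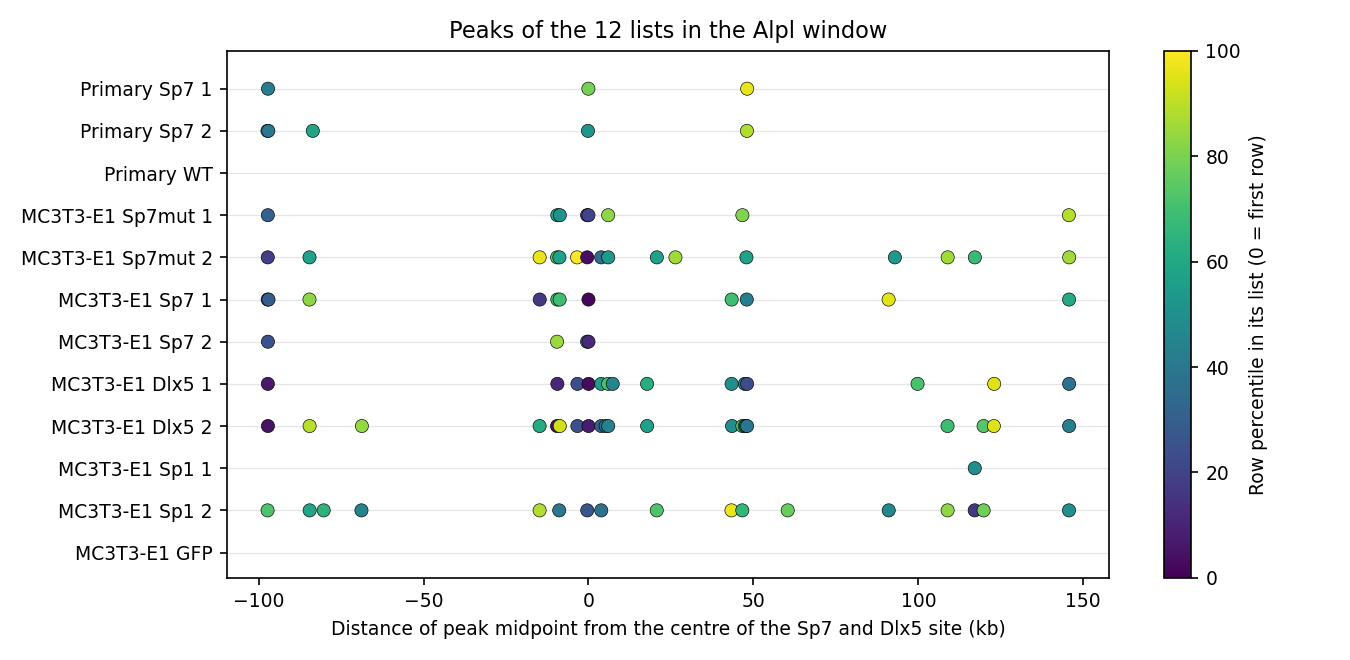
Midpoints of all peaks in the Alpl window by list, as distance in kb from the centre of the Sp7 and Dlx5 site at chr4:137300929-137301136. Colour gives the row percentile. The wild-type and GFP controls have 0 peaks, and Dlx5 replicate 2 has 21.

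The lowest mean row percentiles of Sp7 and of Dlx5 at Alpl fell on 1 site, chr4:137300929-137301136 (208 bp). Sp7mut was called beside it and not on it. At this site Sp7mut had a peak in replicate 1, at row percentile 19.8, and none in replicate 2. In replicate 1 its peak beside the site was nearly level with that, at 17.8. Sp7 stood at 1.84 and 11.4 (mean 6.61 ± 6.74, SD, n = 2), in rows 343 and 690. Dlx5 stood at 2.80 and 7.51 (mean 5.16 ± 3.33, SD, n = 2), close to its mean of 5.85 at chr4:137203491-137204114. Both Sp7 replicates and both Dlx5 replicates were thus in the first 12% of the rows of their lists, and Sp1 had no peak. These peaks are narrow: ranked by width, with the widest near 0, the site stood at a mean percentile of 77.5 for Sp7 and 75.1 for Dlx5. Midpoints of Sp7 and Dlx5 peaks were 19.5 to 37.0 bp apart over the 4 pairs of lists.

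The neighbouring site, chr4:137300539-137300767, lay 161 bp away and was called for Sp7mut alone. Sp7mut stood there at row percentiles 17.8 and 3.90 (mean 10.8 ± 9.81, SD, n = 2), against a single Sp7 peak, in replicate 2, at 50.5. Sp1 had a peak in replicate 2, at 26.9, and Dlx5 had none. It was the Sp7mut site with the lowest mean row percentile of the 6, and the site beside it held the lowest for Sp7. In the whole series a looser kind of pair was counted, with any other Sp7mut site within 1000 bp, whether or not further factors were called there. Of 1190 sites called for Sp7 and Dlx5 but not for Sp7mut, 73 (6.13%) had such a neighbour. Of all 4471 Sp7 and Dlx5 sites, 320 (7.16%) did. Pairs with a site called for Sp7mut alone were not counted separately. The missing peak of Sp7mut at the Sp7 and Dlx5 site rests on replicate 2, and a list without scores cannot show how far below the authors' threshold it was.

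Primary Sp7 had a peak in each replicate at this place, but not on the same bases. Replicate 1 covered chr4:137300929-137301075, inside the Sp7 and Dlx5 site, at row percentile 79.0. Replicate 2 covered chr4:137300843-137300900, at 52.0, which lay 28 bp from that site and 75 bp from the Sp7mut site and touched neither. The site was therefore not called for primary Sp7. With peaks joined over gaps of up to 100 bp, a setting chosen after seeing the data, primary Sp7 had 3 called sites in place of 2. The same setting joined the Sp7mut site and the Sp7 and Dlx5 site into 1, so that sites called for both Sp7mut and Sp7 numbered 3 in place of 2, and those for Sp7mut and Dlx5 5 in place of 4. The side-by-side placing of Sp7mut and Sp7 is thus lost when peaks are joined over such gaps.

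**Figure D2:**
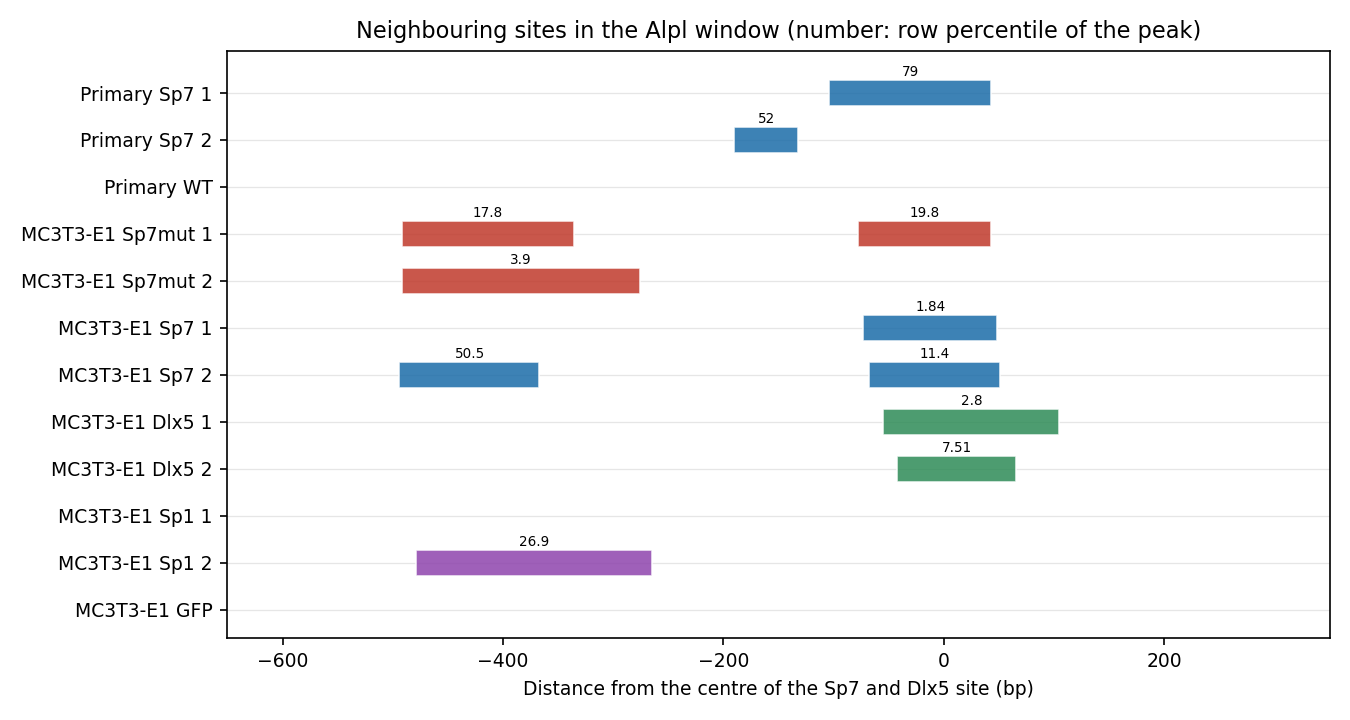
Peak extents in each list around the Sp7 and Dlx5 site of the Alpl window, in bp from its centre, with each peak's row percentile above its bar. Both Sp7mut peaks at the left site stand at 17.8 and 3.90, and the Sp7 and Dlx5 peaks at the right site between 1.84 and 11.4.

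The site held by the most lists was chr4:137203491-137204114, with peaks in 9 of the 12 lists and calls for primary Sp7, Sp7mut, Sp7 and Dlx5. Primary Sp7 stood at row percentiles 42.0 and 40.2 there. Sp7mut stood at 30.5 and 18.1 (mean 24.3 ± 8.75, SD, n = 2), and Sp7 at 28.6 and 24.7 (26.7 ± 2.72), and the values of the mutant and the unmutated factor overlapped. Dlx5 stood at 6.65 and 5.06 (5.85 ± 1.13, SD, n = 2). Sp1 had a late peak in replicate 2, at 72.2, and none in replicate 1. The joined region is 624 bp long. Primary Sp7 replicate 2 had a second peak in it, overlapping the first, at 56.5. Sp7 replicate 1 had 2 separate peaks, and the mean above uses the earlier of them, at 28.6. That peak overlapped peaks of primary Sp7 only. The other, at 30.6, was the one that shared bases with Sp7 replicate 2, Sp7mut and Dlx5. When a shared peak had to cover 50% of its partner in both directions the number of called Sp7 sites over both windows was 1 in place of 3.

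A second site shared by primary Sp7 and Dlx5, chr4:137348666-137349268, stood late in the primary lists. Primary Sp7 stood at row percentiles 96.7 and 88.0 (mean 92.3 ± 6.12, SD, n = 2). Dlx5 stood at 22.7 and 38.7 (30.7 ± 11.3), with 2 peaks in replicate 2. Sp7mut replicate 2 and Sp7 replicate 1 had 1 peak each, at 57.7 and 42.6, and their other replicates had none. A Dlx5 site at chr4:137348320-137348537 lay 128 bp away, at lower coordinates, and the site at chr4:137347585-137347760 lay a further 559 bp away, with single peaks of Sp7mut, Dlx5 and Sp1 and no call.

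**Figure D3:**
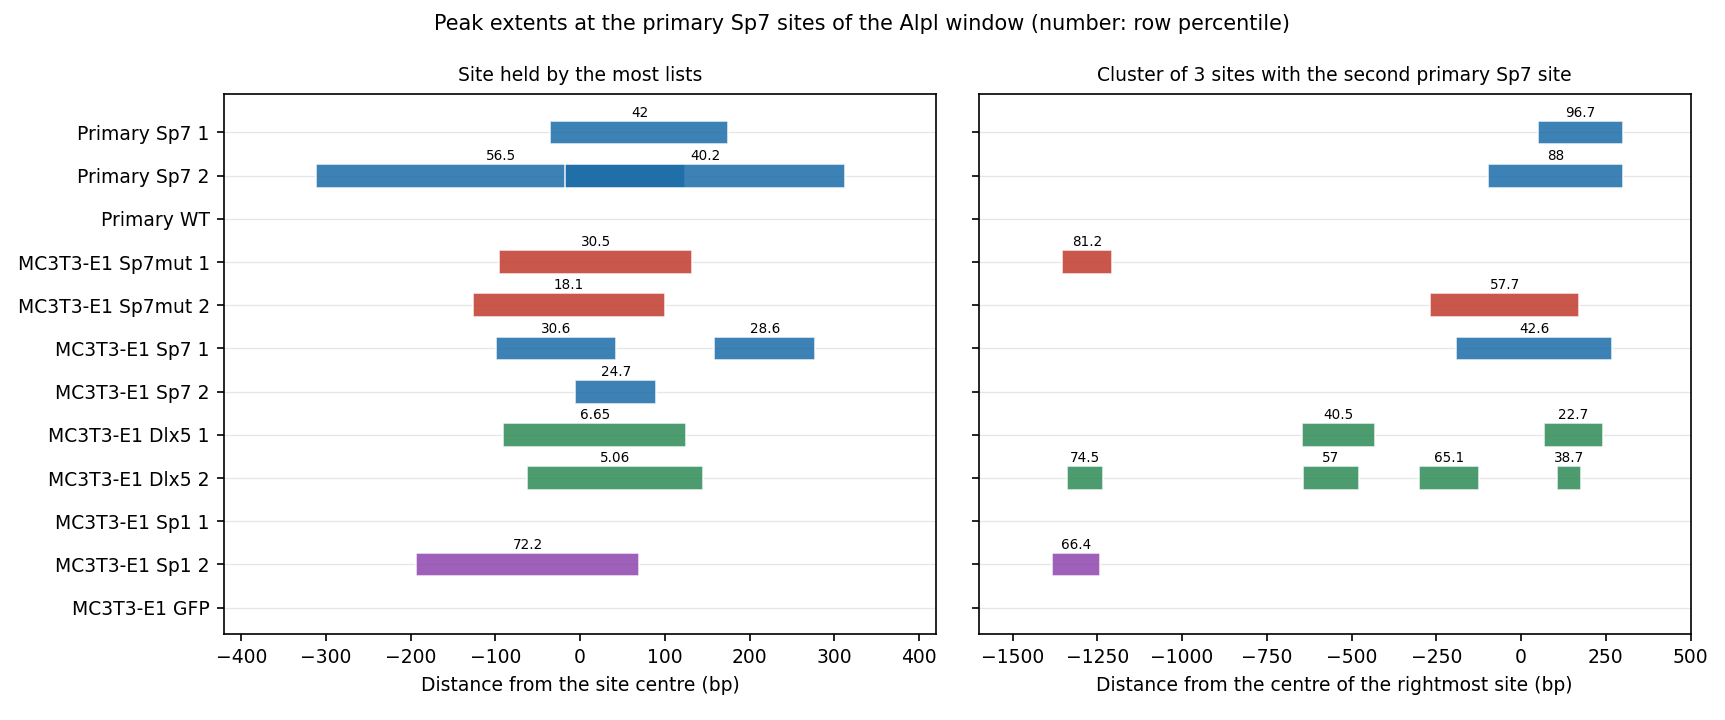
Peak extents in each list at the 2 sites called for primary Sp7, in bp from the centre of each, with row percentiles above the bars. The right panel also holds the site 128 bp to the left and the next site, a further 559 bp to the left of that one. At the left site the Dlx5 peaks are at 6.65 and 5.06; at the right site the primary Sp7 peaks are at 96.7 and 88.0.

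Between these places the Dlx5 lists had a run of sites, some of which Sp7mut shared. The third Sp7 site, chr4:137291446-137291733, stood at row percentiles 59.0 and 73.1 for Sp7mut, against 69.0 and 84.9 for Sp7, whose ranges overlapped. Dlx5 was early there, at 11.0 and 4.50. Beside it, 291 bp away, chr4:137292025-137292435 was called for Sp7mut, at 51.0 and 57.7, where Sp7 had a peak in replicate 1, at 69.2, and Dlx5 in replicate 2, at 92.7. It was the second of the 2 sites that no factor but Sp7mut was called for. Both of them lay within 300 bp of a site called for Sp7 and Dlx5, and both had a peak of Sp1 replicate 2. That Sp1 list had a peak in 44.7% of all sites. How often sites of Sp7mut alone lie so near a Sp7 and Dlx5 site in the whole series was not counted.

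Dlx5 was called at 39.0% of all sites of the series, and how many of those were called for Dlx5 alone was not counted. Dlx5 alone was called at 6 sites of the Alpl window. The earliest of these in the lists, chr4:137297424-137297763, stood at row percentiles 23.9 and 24.6 for Dlx5, and Sp7mut replicate 2 had its peak in row 14828 of 14830 there. The others were chr4:137304755-137305037, chr4:137318724-137318879, chr4:137344243-137344615, chr4:137348320-137348537 and chr4:137423767-137424167, with mean row percentiles of 42.8, 59.7, 49.6, 48.8 and 94.7. At chr4:137344243-137344615 the Dlx5 peaks of the replicates shared no base and were joined by peaks of Sp7 replicate 1 and Sp1 replicate 2, the 1 such case among the 31 calls. Sp7mut joined Dlx5 at chr4:137306885-137307104 (Sp7mut 83.1 and 54.1, Dlx5 71.7 and 43.9) and at chr4:137446581-137446863 (Sp7mut 89.0 and 85.7, Dlx5 37.7 and 42.9). Cell line Sp7 had no peak at the first of these, and 1 in replicate 1 at the second.

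Sp1 was called at 1 site of the Alpl window, chr4:137418024-137418265, at row percentiles 49.2 and 16.4, where Sp7mut replicate 2 also had a peak. The other 16 Sp1 peaks of the window came from replicate 2, whose list has 28210 peaks against 10549 in replicate 1. The 17 sites with no call held 9 found in a single list and 8 found in several. Of these 8, 7 were made up only of the longer list of each pair of replicates. An example is chr4:137286144-137286329, with Sp7mut replicate 2 at row percentile 96.7, Sp7 replicate 1 at 16.3, Dlx5 replicate 2 at 61.0 and Sp1 replicate 2 at 87.9. The Sp7 peak there was its second earliest at Alpl in that list, and replicate 2, with 6063 peaks against 18624, had none.

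In the Bglap window the site with the earliest rows was an Sp1 site. At chr3:88229057-88229288 Sp1 stood at row percentiles 2.20 and 2.65 (mean 2.43 ± 0.320, SD, n = 2), in rows 232 and 748. Dlx5 was also called there, but late, at 94.2 and 67.2 (80.7 ± 19.1, SD, n = 2). Sp7mut and Sp7 had no peak in any list. The lists differ in length, so these positions are no measure of binding between factors. Ranked by peak width, the Sp1 peaks of this site stood at a mean percentile of 60.6.

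The other Sp1 sites of this window were chr3:88140113-88140456 and chr3:88214225-88214347. At the first Sp1 stood at row percentiles 66.0 and 22.4, and at the second at 38.8 and 27.3. Sp7mut replicate 2 had short peaks at both, of 16 and 20 bp, at 68.7 and 78.1. A site 234 bp from the second, chr3:88213538-88213990, had peaks of Sp7mut replicate 2 at 40.7, of Sp7 replicate 1 at 52.9 and of Sp1 replicate 2 at 49.3, and no call. This was the earlier of the 2 places in the window where Sp7 had a peak, the other being chr3:88211071-88211286, at 81.1.

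Dlx5 alone was called at 3 neighbouring sites of the Bglap window, again with no count of such sites over the whole series. They were chr3:88176938-88177162, at row percentiles 47.0 and 22.1, chr3:88182831-88183193, at 94.2 and, for the earlier of 2 peaks of replicate 2, 58.3, and chr3:88188303-88188633, at 29.0 and 29.2. Gaps of 5.67 and 5.11 kb separate them. Sp7mut replicate 2 had peaks at the first and second of them, at 98.9 and 83.9, and Sp7 had none. The third was held by the Dlx5 lists alone, with a 307 bp peak in each. The 4 sites of the window with no call were each held by 1 to 3 lists.

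**Figure D4:**
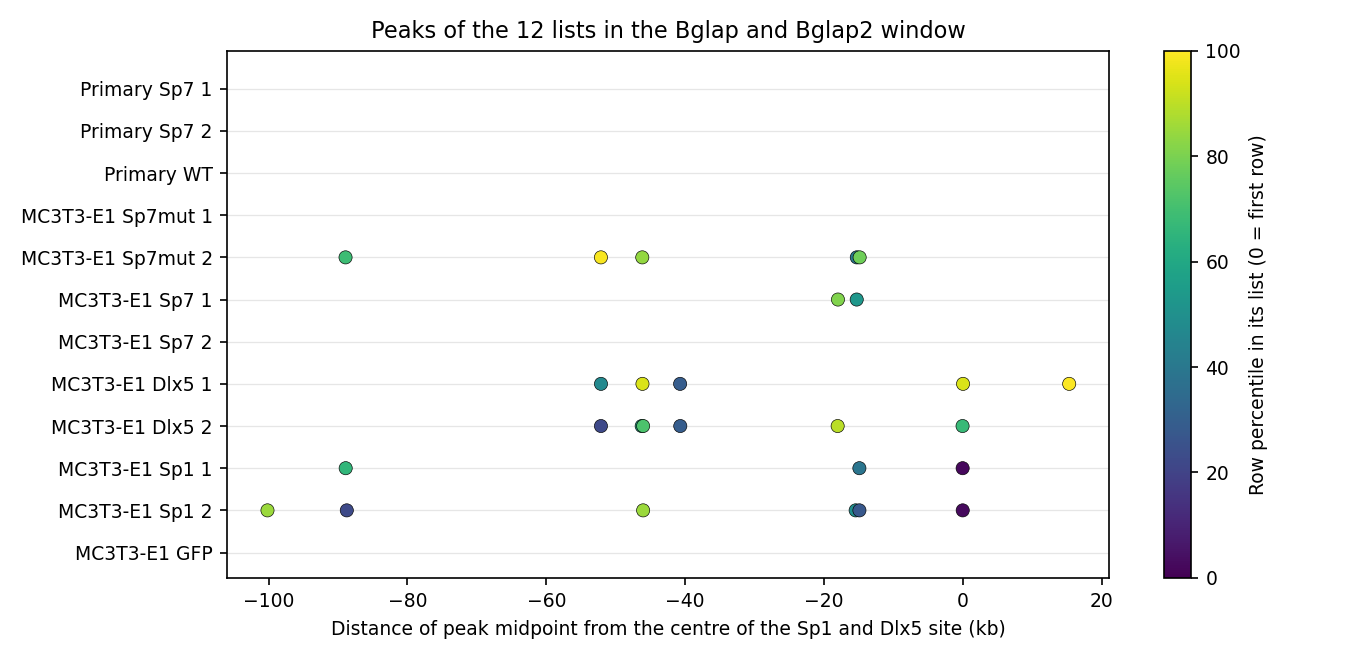
Midpoints of all peaks in the Bglap and Bglap2 window by list, as distance in kb from the centre of chr3:88229057-88229288, coloured by row percentile. Primary Sp7, Sp7mut replicate 1, Sp7 replicate 2 and both controls have 0 peaks, and the Sp1 peaks at the centre stand at 2.20 and 2.65.

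The sites of both windows were set beside all sites found in both replicates of a factor, by their mean row percentile and including sites with a control peak. The median was 66.7 for the 2 primary Sp7 sites, against 41.2 in the whole series. For the 6 Sp7mut sites it was 60.1, against 38.9, and for the 3 Sp7 sites 26.7, against 34.4. The 16 Dlx5 sites had a median of 41.5, against 40.1, and the 4 Sp1 sites of 32.9, against 31.8. Members of Sp7mut ran from 10.8 to 87.4, those of Sp7 from 6.61 to 77.0 and those of Dlx5 from 5.16 to 94.7, so the loci hold both early and late sites. Sites with a mean in the first 20% numbered 1 for Sp7mut, 1 for Sp7, 3 for Dlx5 and 1 for Sp1. Neighbouring rows were in places neighbours in the genome. In Sp7mut replicate 2, rows 8557, 8560, 8563 and 8564 all lay in the Alpl window, and rows 28491 and 28492 of Dlx5 replicate 1 both lay in the Bglap window. In the last 20% of that Sp7mut list, 8.83% of rows were followed by a row within 1 Mb of the same chromosome, against 1.96% in the first 20%. Other lists differed: in Sp1 replicate 1 the share was 1.56% in the last 20%, against 0.474% in the first and 4.74% in the middle 20%, and in primary Sp7 replicate 1 it was 1.12% in the last, against 0.563% in the first.

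**Figure D5:**
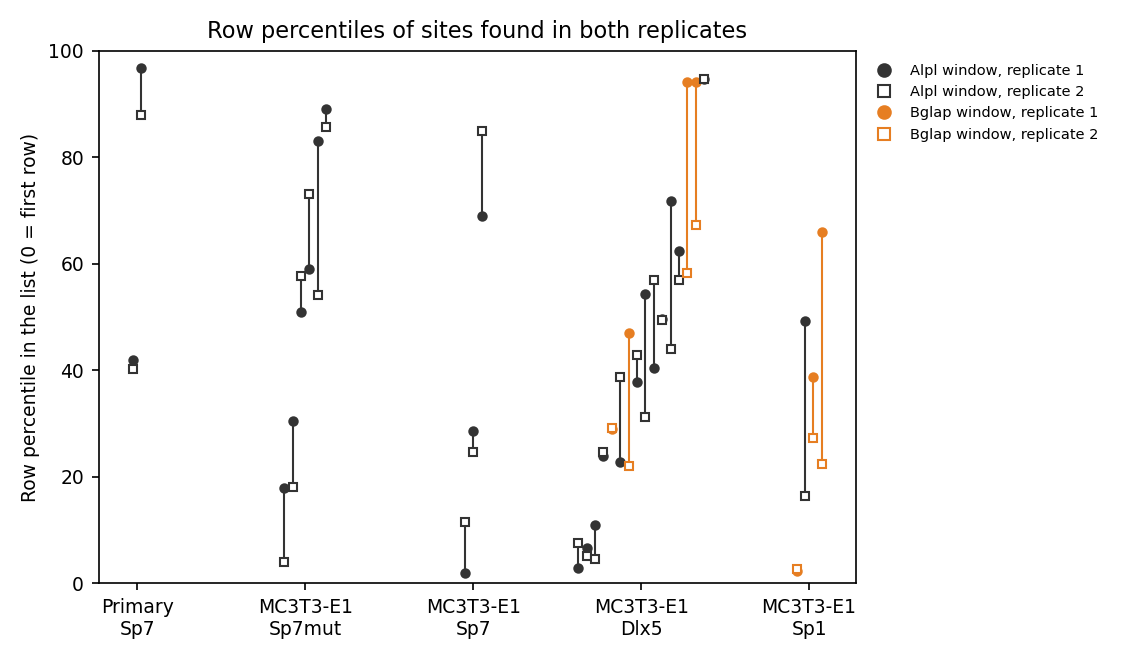
Row percentile in replicate 1 (filled circles) and replicate 2 (open squares) for each of the sites found in both replicates of a factor, joined by a line; black is the Alpl window and orange the Bglap window. The Sp1 pair near the bottom right is at 2.20 and 2.65, and the lowest Sp7 pair at 1.84 and 11.4.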

How the data were processed

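The authors deposited peak lists for 12 of 15 samples, and 3 samples are input DNA. Coordinates are on mm9, per the submitters' processing notes. How reads were aligned, and how peaks were called and filtered, is not given in the sources used here. The labels name 1 input for the primary lists, another for Sp7 and Dlx5 of the cell line and another for Sp7mut and Sp1, and none for GFP. Groups and replicate numbers came from sample titles. Starts were taken as 0-based and are printed 1-based. Peaks of all lists were joined where they shared at least 1 bp, and calls needed a peak in both replicates and no control peak. The tile counts cover the span of peaks on each chromosome. Counts were set beside those of all sites, with no enrichment test. The members and motifs were chosen with earlier results of these data known, and every site of both windows was to be accounted for, with values where a factor was called. The planned count over other mineralization genes needs an annotation of mm9 and was not run. Sequences are from RefSeq tables of GRCm38.p6. Of the 4 genes Alpl, Bglap, Bglap2 and Bglap3, all but Bglap2 had an entry. Bglap3 is not a member and its promoters are not shown, but a TAATTA match was found in 1 of them. The joining and calling code was tested on simulated data with known sites. Alternatives were the overlap, the part of each list used, control peaks, each replicate left out, either replicate, and wider windows. Python 3.11.15, numpy 2.4.6, pandas 2.3.3 and matplotlib 3.10.9 were used.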

Additional observations from a re-analysis of the deposited data

How the results depend on the processing

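Counts of sites and calls depend on the replicates and on how much of each list is used; controls did not matter, since no control peak met a site. Called sites are given in the order primary Sp7, Sp7mut, Sp7, Dlx5 and Sp1, over both windows, and were 2, 6, 3, 16 and 4 as reported. Without replicate 1 they were 4, 21, 4, 25 and 23, and without replicate 2 they were 3, 8, 12, 19 and 4. With a peak in either replicate they were 5, 23, 13, 28 and 23. The wider 50% of each list gave 2, 2, 0, 5 and 1, the earlier 50% gave 1, 2, 2, 8 and 3, and the first 2500 rows gave 1 for each factor. Where peaks had to cover 50% of each other, they were 2, 4, 1, 12 and 3. Windows widened by their own length on both sides gave 7, 12, 7, 38 and 12, by construction over more sequence.

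The 32 Alpl sites and 10 Bglap sites became 46 and 16 at the 50% overlap, 21 and 7 in the wider 50%, 19 and 6 in the earlier 50%, 6 and 1 in the first 2500 rows and 59 and 38 in the widened windows. Sites called for both Sp7 and Dlx5, 3 as reported, were 1 at the 50% overlap, 0 in the wider 50% and 0 in the first 2500 rows, 3 to 6 with a replicate left out, and 10 with either replicate. Those of Sp7 and Sp1 were 0 as reported, 0 to 2 with a replicate left out and 9 with either. These settings ease the demand on Sp7 and Sp1 together; at the 3 called Sp7 sites, Sp1 had a single peak, of replicate 2. Ranked by peak width, 20 of 31 mean percentiles moved by more than the replicate SD, among them those of the sites with the earliest rows: 77.5 in place of 6.61 for Sp7 and 75.1 in place of 5.16 for Dlx5 at chr4:137300929-137301136, and 60.6 in place of 2.43 for Sp1 at chr3:88229057-88229288. Joining peaks over gaps of up to 100 bp, chosen after seeing the data, left 30 Alpl sites. No paired analysis was possible because the results come from no test. The lists give no depth, so a missing peak may lie just under the authors' threshold.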
